A study of Rattus norvegicus with 30 samples.

Results

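Jchain, Mzb1, Pou2af1 and Cd180 are 4 genes of the B lymphocyte lineage, followed here in the ileum of rats after bariatric surgery. For each gene the brightest transcript cluster named for that symbol alone was taken, and each had exactly 1 such cluster. These 4 genes are among 10918 that were measured and tested. The study profiled the ileum of 30 wild-type male Long-Evans rats on 1 Affymetrix array each, in 5 groups of 6. All rats were 8 to 10 weeks old, were kept under specific pathogen-free conditions, received a liquid diet on the day before surgery and had a midline incision. The RYGB group had Roux-en-Y gastric bypass and Sham_RYGB its sham operation. The VSG group had vertical sleeve gastrectomy, in which about 80% of the stomach was transected, and Sham_VSG was its sham, in which blunt forceps pressed on the stomach. Sham_VSG_PF was the same sham with paired feeding. The labels describe the sleeve and its sham only, and do not say at what time after surgery the ileum was taken.

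B cells of the gut gather in follicles of organised lymphoid tissue such as Peyer's patches, where germinal centres select them and drive their switch to IgA. Their descendants, the plasma cells, spread through the lamina propria between the crypts and secrete IgA in polymers. The epithelium then carries these polymers into the lumen. A piece of ileum can therefore hold many plasma cells whether or not it includes a follicle.

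The 4 genes stand at different points of that lineage. Jchain encodes the joining chain, which links IgA into dimers and IgM into pentamers and is made by antibody-secreting cells. Mzb1 encodes a chaperone of the endoplasmic reticulum that helps immunoglobulin to be assembled and secreted, and in mouse it is found in plasma cells and in marginal zone and B1 B cells. Pou2af1 encodes a coactivator (OCA-B) that acts with the octamer-binding factors Oct-1 and Oct-2, and in mouse it is needed for germinal centres. Cd180 encodes a surface receptor related to Tlr4 that pairs with the product of Ly86 and is known on B cells, macrophages and dendritic cells.

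In GRCr8 Jchain lies at chr14:19822976-19831072, Mzb1 at chr18:27513087-27515148, Pou2af1 at chr8:60418173-60445176 and Cd180 at chr2:35589889-35602837. Pou2af1 acts at octamer sites, whose letters are ATTTGCAT, and RefSeq's promoter table for GRCr8 held entries for Jchain and Cd180, so these sequences are shown with the closest match to that site in capitals. Both are printed 5′ to 3′ on the plus strand, which is the strand of both genes, and end at the last base before the gene. The Jchain sequence covers chr14:19822726-19822975 and the Cd180 sequence chr2:35589680-35589888.
Jchain: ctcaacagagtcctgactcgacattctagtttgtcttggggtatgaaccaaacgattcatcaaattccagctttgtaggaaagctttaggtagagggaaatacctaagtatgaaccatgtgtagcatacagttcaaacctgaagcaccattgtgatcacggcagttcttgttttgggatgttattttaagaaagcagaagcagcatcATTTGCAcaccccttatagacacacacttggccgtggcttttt
Cd180: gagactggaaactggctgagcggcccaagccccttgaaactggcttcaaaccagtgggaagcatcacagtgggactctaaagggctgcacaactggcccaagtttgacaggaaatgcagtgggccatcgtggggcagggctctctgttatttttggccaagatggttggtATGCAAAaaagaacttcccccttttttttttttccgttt

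The window searched was the 250 bases before RefSeq's start site, which for Cd180 lies 41 bases inside the gene. The Cd180 window therefore runs past the 209 bases printed. The full octamer was absent on both strands from the window of either gene. A run of 7 of its letters, searched as ATTTGCA or TTTGCAT on both strands, occurred 1 time in each window. In Jchain it was ATTTGCA on the plus strand, 43 bases before the gene's start. In Cd180 it was ATGCAAA, which is TTTGCAT read on the minus strand, 39 bases before the gene's start. Of 33469 promoter windows of 250 bases, 523 (1.56%) held the full octamer and 2001 (5.98%) held either 7-letter run, which also counts every full octamer. Of the 9 follicle B cell genes with a window in that table, 2 (Blnk and Vpreb3) held a full octamer. A match describes the letters in these windows and is no evidence of binding.

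Values are log2 signals as deposited, so a difference of 1 is a factor of 2 in signal, and levels are compared only within a gene. Array medians lay at 3.10 to 3.25, and pairs of arrays correlated at 0.952 to 0.981. The ileal genes Fabp6 (11.84 to 12.21) and Slc10a2 (9.77 to 10.84) were bright on every array. The arrays fell into separate ranges of B cell genes. A list of 16 measured follicle B cell genes, which holds none of the 4 genes described here, had a mean between 3.79 and 4.38 in 19 arrays and between 6.58 and 8.00 in the other 11, with nothing in the gap of 2.20. These are called the lower and the upper follicle range below. In the upper range were 3 arrays each of Sham_RYGB and Sham_VSG, 2 each of VSG and Sham_VSG_PF, and 1 of RYGB. The ranges were read from the data, so they are not tested against each other. Tests within a range are named as such. Fewer cells of a type and less RNA per cell cannot be told apart in whole tissue.

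The 4 genes followed this division to very different degrees. Cd180 and Pou2af1 separated the arrays without overlap, and Mzb1 and Jchain did so only in part, with more arrays in the overlap for Jchain than for Mzb1. Among all 10918 genes, 304 (2.78%) were higher in every upper-range array than in any lower-range array, and 28 (0.256%) were lower in every one. The plot of each gene against the follicle list shows this for every array.

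**Figure D1:**
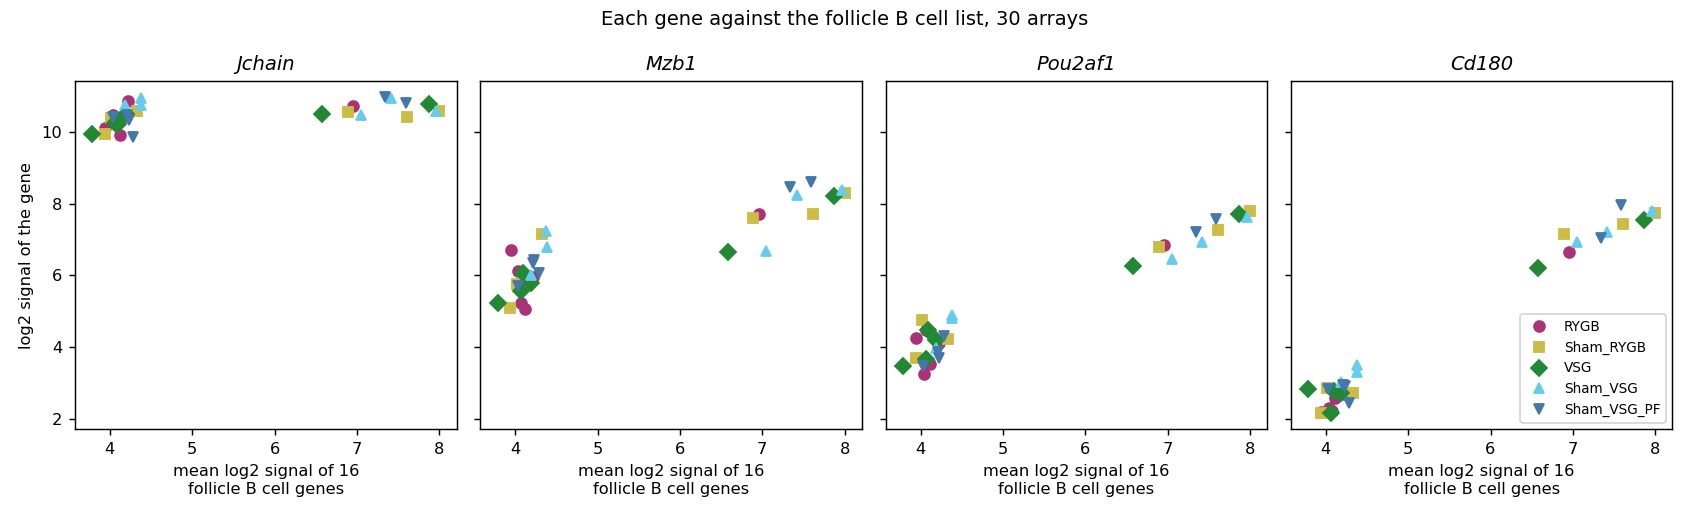
Log2 signal of Jchain, Mzb1, Pou2af1 and Cd180 (vertical axes) against the mean log2 signal of the 16 follicle B cell genes (horizontal axes), 1 point per array, coloured by group. Cd180 and Pou2af1 form separate clouds in the 19 lower-range and 11 upper-range arrays, while the Jchain values of the 2 ranges overlap, with medians of 10.40 and 10.59.

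Jchain, the joining chain, was at 9.86 at the lowest, 10.40 at the median and 10.96 at the highest in the 19 lower-range arrays. In the 11 upper-range arrays it was at 10.43, 10.59 and 10.98. The ranges overlapped: 11 of the 19 lower-range arrays lay below every upper-range array, 8 lay above the lowest of them, and 10 of the 11 upper-range arrays lay below the highest lower-range array. Of the 11 arrays with the most Jchain signal, 6 were in the upper range. Over all 30 arrays the SD of Jchain was 0.32 and its whole span a factor of 2.18. The median SD of all genes was 0.27, and 3505 genes had a larger SD than Jchain.

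Mzb1, the plasma cell chaperone, was at 5.06, 6.00 and 7.23 (lowest, median and highest) in the lower range. In the upper range it was at 6.66, 8.22 and 8.59. Its medians lay far apart, yet 4 lower-range arrays lay above the lowest upper-range array and 2 upper-range arrays lay below the highest lower-range array. Its span over the 30 arrays was a factor of 11.6 and its SD 1.11, which 91 genes exceeded. Within the lower range alone Mzb1 spanned a log2 difference of 2.17, the widest of the 4 genes there.

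Pou2af1, the octamer coactivator, was at 3.26, 4.12 and 4.90 in the lower range. In the upper range it was at 6.27, 7.22 and 7.79. Every upper-range array was above every lower-range array, with an empty gap of 1.37. The span was a factor of 23.1 and the SD 1.58, exceeded by 28 genes.

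Cd180, the Toll-like receptor relative, was at 2.15, 2.73 and 3.50 in the lower range. In the upper range it was at 6.20, 7.22 and 7.96. The gap between the ranges was 2.69. Only 6 genes had a larger SD over the 30 arrays than the 2.27 of Cd180, and its span was a factor of 55.9. In 5 lower-range arrays Cd180 lay below 2.33, the cutoff used to leave out dim genes, and no detection calls were used here, so the lower end of that span is uncertain.

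**Figure D2:**
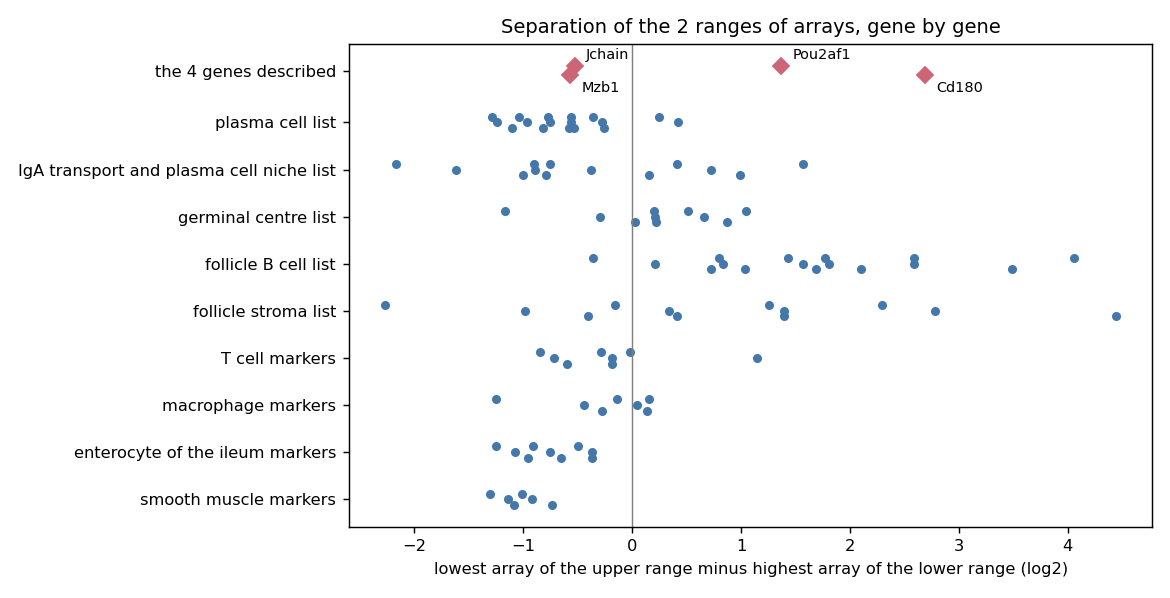
Gap between the follicle ranges for the 4 genes described (diamonds) and for every tested gene of 9 lists (circles), as the lowest log2 signal of the 11 upper-range arrays minus the highest of the 19 lower-range arrays (horizontal axis). For genes right of 0, which are 2.78% of all genes tested, the ranges do not overlap, and Cd180 (2.69) and Pou2af1 (1.37) lie there. Jchain (-0.53) and Mzb1 (-0.57) lie left of 0, as most genes do. The Mzb1 medians of the ranges (6.00 and 8.22) lay further apart than those of Jchain (10.40 and 10.59).

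Across the 5 groups of rats the members varied mostly within groups. Differences among group means held 19.9% of the variance of Jchain, 15.0% of Mzb1, 11.1% of Pou2af1 and 11.9% of Cd180, and the median over all genes was 14.8%. A moderated F-test (limma) of any difference among the 5 groups gave adjusted p = 0.646 for Jchain, 0.726 for Mzb1, 0.804 for Pou2af1 and 0.789 for Cd180, with 0.128% of all genes past an adjusted p of 0.05.

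**Figure D3:**
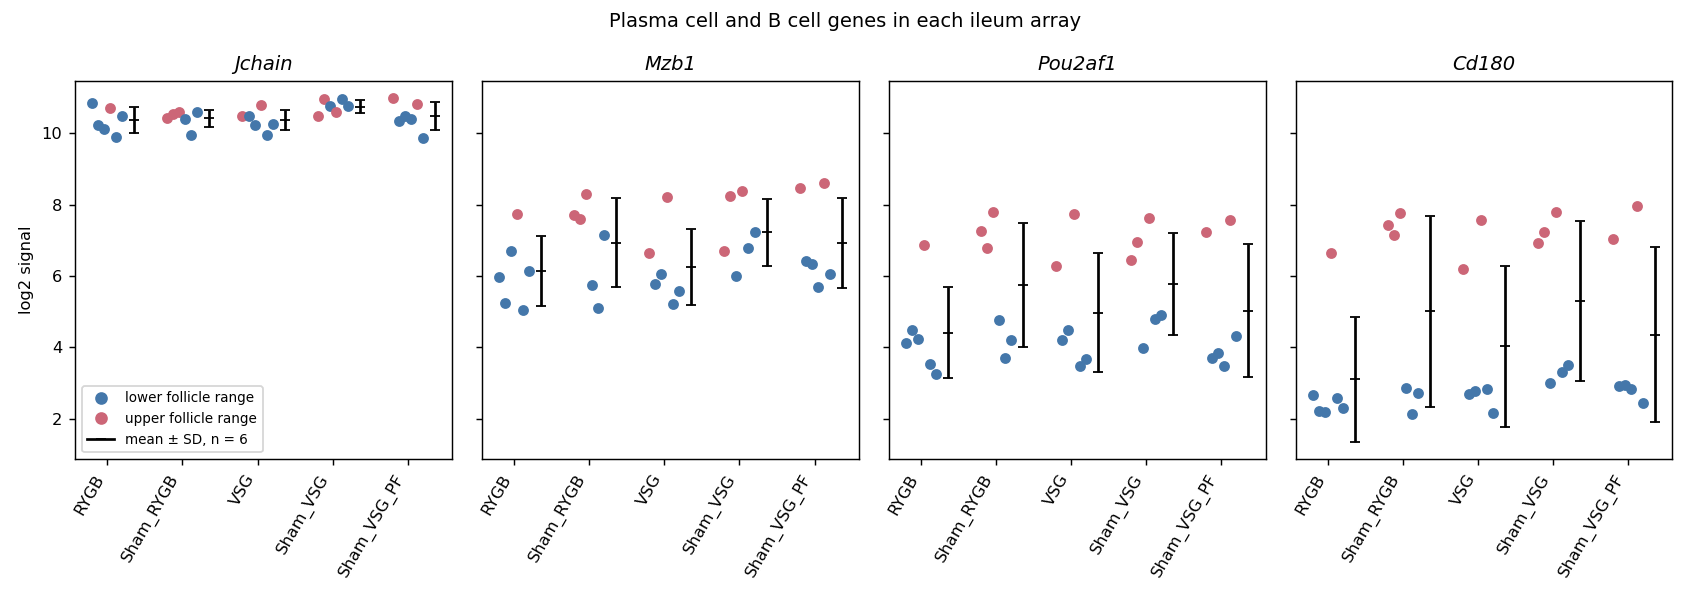
Log2 signal of the 4 genes in each array (points, coloured by follicle range) by group, with group mean and SD (bars), n = 6 rats a group. In every group the Pou2af1 and Cd180 values of upper-range arrays lie above those of lower-range arrays, and the groups overlap in all 4 genes.

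In Jchain the group means ran, from the highest, from Sham_VSG (10.75 ± 0.19, SD, n = 6) through Sham_VSG_PF (10.48 ± 0.40), Sham_RYGB (10.42 ± 0.25) and RYGB (10.38 ± 0.37) to VSG (10.37 ± 0.29). Neighbours in that order differed by less than the larger of their SDs, though the step of 0.27 from Sham_VSG to Sham_VSG_PF exceeded the SD of Sham_VSG. By array, Sham_VSG was at 10.48, 10.76 and 10.96 (lowest, median and highest) and VSG at 9.94, 10.38 and 10.79. Sham_VSG_PF was at 9.86, 10.44 and 10.98, the widest of the 5 groups. Sham_RYGB was at 9.94, 10.49 and 10.60, and RYGB at 9.91, 10.35 and 10.86. Every group overlapped every other, and the lowest Sham_VSG array still lay above the median of all other groups except Sham_RYGB.

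In Mzb1 the order of the means was Sham_VSG (7.22 ± 0.93), Sham_RYGB (6.94 ± 1.24), Sham_VSG_PF (6.93 ± 1.26), VSG (6.25 ± 1.08) and RYGB (6.14 ± 0.98), with no step beyond the SD. By array, RYGB was at 5.06, 6.05 and 7.73 and Sham_RYGB at 5.10, 7.37 and 8.30. VSG was at 5.22, 5.92 and 8.22, Sham_VSG at 6.00, 7.01 and 8.37, and Sham_VSG_PF at 5.70, 6.39 and 8.59. The lowest array of each group lay below 6.66, the lowest upper-range value, so the sham groups too held arrays low in Mzb1.

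In Pou2af1 the means ran from Sham_VSG (5.79 ± 1.43) and Sham_RYGB (5.76 ± 1.73) through Sham_VSG_PF (5.02 ± 1.86) and VSG (4.97 ± 1.67) to RYGB (4.42 ± 1.28). RYGB was at 3.26, 4.18 and 6.86 (lowest, median and highest) and Sham_RYGB at 3.71, 5.78 and 7.79. VSG was at 3.48, 4.35 and 7.73, Sham_VSG at 3.99, 5.67 and 7.63, and Sham_VSG_PF at 3.48, 4.08 and 7.57. Each group reached from the low to the high set of Pou2af1 values, and its SD was larger than any step between neighbouring means.

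In Cd180 the order was Sham_VSG (5.29 ± 2.24), Sham_RYGB (5.01 ± 2.68), Sham_VSG_PF (4.36 ± 2.46), VSG (4.04 ± 2.25) and RYGB (3.11 ± 1.75). RYGB was at 2.19, 2.44 and 6.66, with 5 of its arrays at or below 2.68 and 1 in the upper range. Sham_RYGB was at 2.15, 5.00 and 7.75, its median falling between 3 low and 3 high arrays. VSG was at 2.16, 2.80 and 7.56, Sham_VSG at 3.02, 5.21 and 7.80, and Sham_VSG_PF at 2.44, 2.94 and 7.96. The order of the Cd180 means was also that of Mzb1 and Pou2af1. It followed the number of upper-range arrays in each group. That number was 3 in Sham_VSG and Sham_RYGB, 2 in Sham_VSG_PF and VSG, and 1 in RYGB. No step between neighbours exceeded the SD.

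RYGB was set against its own sham to ask about the bypass. All 4 genes had lower means after RYGB and none passed. By limma 0.183% of all genes and 0 of the 4 genes had an adjusted p below 0.05 in this comparison. An unadjusted p below 0.05 was reached by 13% of all genes and by 0 of the 4. The log2 difference was -1.90 for Cd180 (95% interval -4.46 to 0.65; adjusted p = 0.517), a factor of 3.74. It was -1.34 for Pou2af1 (-3.13 to 0.45; adjusted p = 0.516) and -0.80 for Mzb1 (-2.03 to 0.44; adjusted p = 0.571). For each of these 3 genes 5 of 6 RYGB arrays lay below the sham mean. Jchain differed by -0.04 (-0.39 to 0.32; adjusted p = 0.944), with 3 of 6 arrays below, and that interval leaves out a change beyond 0.39 in either direction. The intervals of Pou2af1 and Cd180 were wide enough to hold both no change and a change of 3 log2 units. An exact permutation test over the 924 splits of the 12 arrays (two-sided) gave p = 0.0866 for Cd180, or 0.511 adjusted over the 16 such tests.

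RYGB and Sham_RYGB held different numbers of arrays of each follicle range, and the part of this in the differences was not tested. RYGB had 5 lower-range arrays of 6 and Sham_RYGB 3 of 6. Within the lower-range arrays alone the difference was -0.18 for Cd180, -0.30 for Pou2af1, -0.18 for Mzb1 and 0.00113, so no longer negative, for Jchain. Of the T cell markers 8 of 8 had a lower mean after RYGB, where 51.9% of all genes did. An unadjusted p below 0.05 by limma was reached by 0 of these markers and by 13% of all genes. Their list mean was 4.81 to 6.94 in RYGB and 5.27 to 7.07 in Sham_RYGB. Of the macrophage markers 6 of 7 had a lower mean and of the enterocyte markers 9 of 9 a higher one, and 0 in either list had an unadjusted p below 0.05. Of the fat cell markers 10 of 10 had a higher mean, 8 of them with an unadjusted p below 0.05 and 1 (Cidec) past the adjusted threshold by limma. Whether the Cidec signal came from fat cells was not tested. The list mean of the fat cell markers was 4.61 to 6.91 in RYGB against 4.01 to 4.64 in Sham_RYGB. The fat cell mean was 6.45 to 6.91 in 3 RYGB arrays, all in the lower follicle range, and 7.21 in 1 VSG array, in the upper follicle range. The part of these other cell types in the results was not tested.

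**Figure D4:**
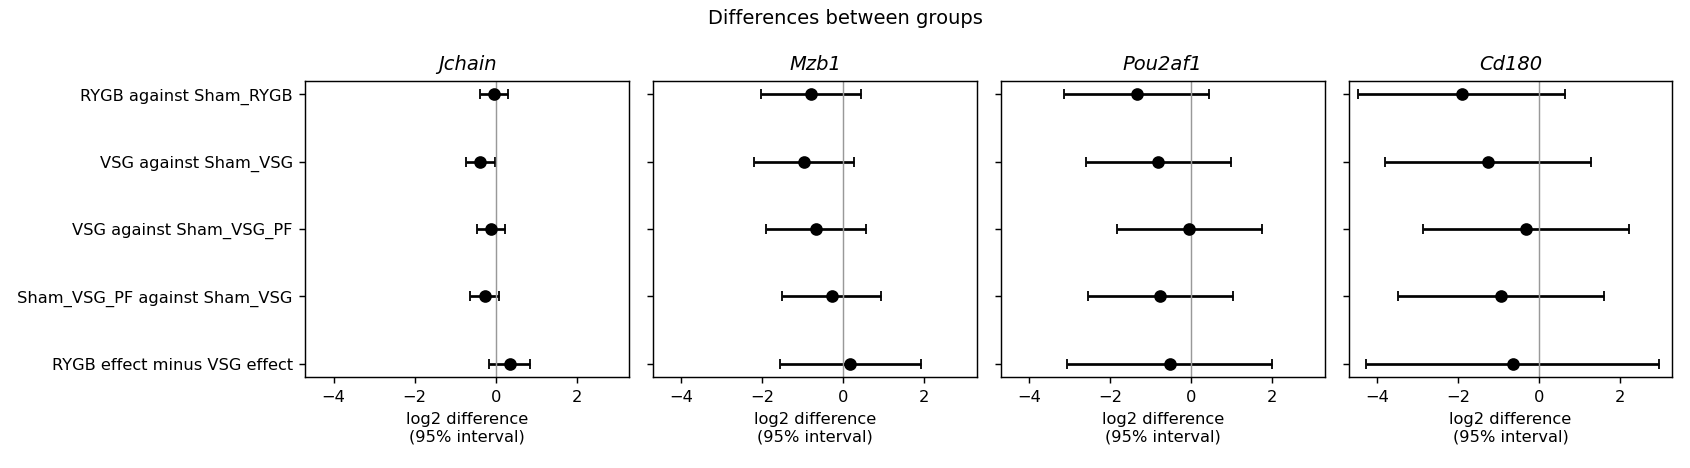
Log2 difference (horizontal axis) with its 95% interval for each of the 4 genes in the 5 contrasts (vertical axis), from the limma fit of all 30 arrays. The intervals widen from Jchain to Cd180, and all include 0 except that of Jchain in VSG against Sham_VSG (-0.38, interval -0.73 to -0.03).

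VSG was set against Sham_VSG to ask about the sleeve operation. With limma 0% of all genes passed, and 0 of the 4 genes did, while 6.05% of all genes and 1 of the 4, Jchain, had an unadjusted p below 0.05. Jchain was at 10.37 ± 0.29 after VSG and 10.75 ± 0.19 after the sham, lower with 5 of 6 arrays below the sham mean. Its log2 difference of -0.38 had an interval of -0.73 to -0.03 and an adjusted p of 0.788, the 492nd smallest p of 10918. An exact permutation test gave p = 0.0281, or 0.450 adjusted over the 16 tests, and the groups overlapped. Mzb1 differed by -0.97 (-2.20 to 0.26; adjusted p = 0.840), also with 5 of 6 arrays below. Cd180 differed by -1.26 (-3.81 to 1.297; adjusted p = 0.867) and Pou2af1 by -0.81 (-2.60 to 0.98; adjusted p = 0.879), with 4 of 6 arrays below in both.

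VSG had 4 lower-range arrays and Sham_VSG 3. Among these arrays alone Jchain differed by -0.59, Mzb1 by -1.02, Cd180 by -0.65 and Pou2af1 by -0.60. None passed after adjustment over all genes by limma (adjusted p = 0.506 for Jchain, 0.584 for Mzb1, 0.433 for Cd180 and 0.681 for Pou2af1). In these arrays the follicle list mean was 3.79 to 4.19 in VSG and 4.19 to 4.38 in Sham_VSG. Cd180 was dim in them, at 2.16 to 2.84 in VSG and 3.02 to 3.50 in Sham_VSG, near the cutoff of 2.33. The part of either in the differences was not tested. Whether the 2 operations differ in their effect was tested directly: the RYGB effect minus the VSG effect was 0.34 for Jchain, 0.17 for Mzb1, -0.53 for Pou2af1 and -0.65 for Cd180 (adjusted p = 0.927, 0.995, 0.982 and 0.985), with 0% of all genes past the threshold by limma and 5.72% (0 of the 4 genes) at an unadjusted p below 0.05. In the lower-range arrays alone that contrast turned to 0.30 for Pou2af1 and 0.47 for Cd180, and without the arrays high in fat cell markers to 0.27 and 0.50. T cell markers had a lower mean after VSG in 8 of 8, where 56.5% of all genes did. An unadjusted p below 0.05 by limma was reached by 0 of these markers and by 6.05% of all genes. Their list mean was 5.25 to 7.22 in VSG and 5.67 to 7.30 in Sham_VSG, and their part in the result was not tested.

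Paired feeding was compared on both sides, and these comparisons share arrays with the one above. Sham_VSG_PF against Sham_VSG gave -0.27 for Jchain (-0.62 to 0.09), -0.29 for Mzb1 (-1.52 to 0.94), -0.76 for Pou2af1 (-2.55 to 1.03) and -0.94 for Cd180 (-3.49 to 1.62). VSG against Sham_VSG_PF gave -0.11 for Jchain (-0.47 to 0.24), -0.68 for Mzb1 (-1.91 to 0.55), -0.05 for Pou2af1 (-1.84 to 1.74) and -0.32 for Cd180 (-2.87 to 2.23). By limma 0 of the 4 genes passed in either (adjusted p of at least 0.937), and 0 of the 4 had an unadjusted p below 0.05, where 5.33% of all genes did in the first and 5.94% in the second.

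How the 4 genes varied together was examined within each follicle range, since a correlation over all 30 arrays would only restate the division. Of 12 relations (6 pairs in 2 ranges), 7 passed after Benjamini-Hochberg adjustment of permutation tests with 100000 resamples. Pairs of other genes were not tested in this way, so no share of all genes stands beside that count. In the 19 lower-range arrays Jchain was correlated with Cd180 (Pearson r = 0.615, adjusted p = 0.0179; rho = 0.584, adjusted p = 0.0416) and with Mzb1 (r = 0.593, adjusted p = 0.0190; rho = 0.530, adjusted p = 0.0416). Mzb1 and Cd180 were correlated by r only (r = 0.508, adjusted p = 0.0459; rho = 0.461, adjusted p = 0.0828). In these arrays Pou2af1 had r = 0.476 with Mzb1, 0.407 with Cd180 and 0.384 with Jchain (adjusted p = 0.0595, 0.112 and 0.124), and none of the 3 passed. Cd180 was at 2.15 to 3.50 in the lower range, with 5 arrays below the dim-gene cutoff of 2.33. Its correlations there rest on dim values.

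In the 11 upper-range arrays the strongest pair was Pou2af1 and Cd180 (r = 0.889, adjusted p = 0.00384; rho = 0.855, adjusted p = 0.0204). Mzb1 was correlated there with Pou2af1 (r = 0.858, adjusted p = 0.00390; rho = 0.709, adjusted p = 0.0416) and with Cd180 (r = 0.761, adjusted p = 0.0179; rho = 0.700, adjusted p = 0.0416). Jchain was correlated with Mzb1 (r = 0.672, adjusted p = 0.0459; rho = 0.745, adjusted p = 0.0416), and its r with Pou2af1 was 0.300 and with Cd180 0.168 (adjusted p = 0.395 and 0.619). Whether the Jchain and Cd180 relation differs between the ranges was not tested. All 7 relations missed the threshold without the 2 arrays farthest from the median of the first gene, where r was 0.382 to 0.833 and the lowest adjusted p 0.0658. The 7 also missed it when each value was taken as its deviation from its group's mean (r of 0.274 to 0.936, lowest adjusted p 0.0890), a test that in the upper range has only 144 orderings. The arrays of a range share their tissue makeup, and T cell markers had a median r with Mzb1 of 0.53 in the lower and 0.82 in the upper range. The follicle B cell list had a median r of 0.88 with Pou2af1 and 0.85 with Cd180 in the upper range. Over all genes these medians were -0.05 and -0.04. Correlations of that size are therefore not particular to the pairs of the 4 genes.

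**Figure D5:**
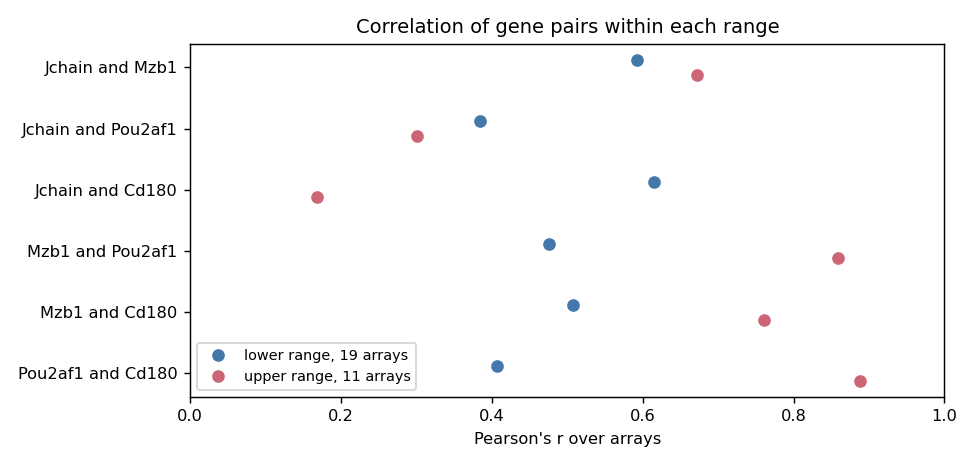
Pearson r (horizontal axis) for each pair of the 4 genes (vertical axis) in the 19 lower-range and in the 11 upper-range arrays. The Pou2af1 and Cd180 pair goes from 0.407 in the lower to 0.889 in the upper range, while the Jchain and Cd180 pair goes from 0.615 to 0.168.

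The genes most like each member were taken as those with the highest likeness, the lower of the Pearson r in the 19 lower-range and the 11 upper-range arrays. For Jchain these were Txndc5 (0.626), a protein disulfide isomerase of secretory cells, then the complement inhibitor Serping1 (0.622), Evi2b (0.614), Nprl2 (0.611) and the macrophage gene Aif1 (0.608). Mzb1 stood 11th of 10917 genes for Jchain, Pou2af1 446th and Cd180 1274th. For Mzb1 they were Fermt3 (0.763), which activates integrins in blood cells, the myeloid and B cell factor Spi1 (0.737), the integrin subunit Itgb2 (0.719), the macrophage marker Cd68 (0.715) and the proteasome subunit Psmb4 (0.709). Jchain was 56th for Mzb1, Cd180 164th and Pou2af1 231st. For Pou2af1 they were the adaptor Lat2 (0.695), the kinase Map3k8 (0.680), the B cell surface gene Ms4a1 (0.677), the factor Irf4 (0.666) and Akap17b (0.647). For Cd180 they were the protease inhibitor Slpi (0.672), Srgn (0.672), Ncf1 (0.671), Arl6ip1 (0.662) and Arhgap30 (0.643), of which Ncf1 is a subunit of the phagocyte oxidase and Srgn a proteoglycan of blood cell granules. Among the other members, Mzb1 was 87th for Pou2af1, Cd180 217th and Jchain 581st. Mzb1 was 102nd for Cd180, Pou2af1 323rd and Jchain 1667th. A likeness over 0.5 was reached by 34 genes for Jchain, 179 for Mzb1, 57 for Pou2af1 and 119 for Cd180. The Cd180 values of the lower range were dim, which limits its likeness too.

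Other genes of the lineage show where the 4 stand. In the plasma cell list 17 of 28 genes were tested and 11 gave no value. Of the 17, 2 separated the ranges without overlap, against 2.78% of all genes. These were Irf4, a factor of both germinal centre and plasma cells (3.83 to 5.34 in the lower and 5.77 to 7.41 in the upper range), and Eaf2 (1.84 to 2.73 and 2.98 to 4.74). Pim2, a survival kinase, overlapped (3.36 to 4.74 and 4.17 to 5.58). The genes with the smallest SD were those of the secretory machinery that every cell uses, Ssr4 (SD 0.15) and Hspa5 (SD 0.14). The median SD of the list was 0.27, as for all genes, and that of Jchain was 0.32.

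Tnfrsf17 encodes BCMA, the survival receptor of plasma cells, and is named here outside the rule for named genes, after its values were seen. It was at 3.76, 4.61 and 5.21 (lowest, median and highest) in the lower range and at 3.98, 5.20 and 6.02 in the upper range. Its ranges overlapped, as those of Jchain and of most genes did. Its r with Jchain was 0.78 in the lower range, the highest of the 17 plasma cell genes, and 0.27 in the upper. With Mzb1, Pou2af1 and Cd180 its r was 0.66, 0.38 and 0.40 in the lower range and 0.67, 0.63 and 0.60 in the upper. Over the 17 genes the median r with Jchain was 0.14 in the lower and 0.27 in the upper range, and the lowest in the lower range was that of Herpud1 (-0.45).

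In the follicle B cell list, which defined the ranges, 16 of 27 genes were tested and 15 separated them, as the choice of the list fixes. Ms4a1, which encodes CD20, was at 1.79 to 4.04 in the lower range and at 8.09 to 9.33 in the upper. Fcmr, the IgM receptor, was at 3.29 to 4.84 and at 8.34 to 9.71. Tnfrsf13c, the BAFF receptor, was at 2.77 to 4.44 and at 7.03 to 8.81. Cd83 and Blnk had the smallest SDs of the list (1.00 and 0.52), and Blnk overlapped. Within the upper range the list's genes had a median r of 0.88 with Pou2af1, 0.85 with Cd180, 0.73 with Mzb1 and 0.17 with Jchain, and within the lower range of 0.20, 0.18, 0.15 and 0.26.

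Of the germinal centre list 10 of 14 genes were tested, and 8 separated the ranges, against 2.78% of all genes. The ranges come from follicle B cell genes, so the separation of germinal centre and follicle stroma genes is not independent of that choice. Klhl6 was at 3.50 to 4.41 in the lower and 5.28 to 6.65 in the upper range, the DNA glycosylase Neil1 at 3.03 to 4.27 and 5.32 to 6.73, and the IL-21 receptor Il21r at 4.28 to 5.58 and 6.09 to 7.72. Rgs13 overlapped (3.79 to 6.03 and 4.86 to 6.10), and Basp1 separated by 0.03. The median SD of this list was 1.03, close to that of Mzb1 (1.11) and below those of Pou2af1 and Cd180.

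Of the genes for IgA transport and the plasma cell niche, 13 of 19 were tested. Of these 5 separated the ranges, against 2.78% of all genes. Il10 and Il5 were below the filter on dim genes, and 4 gave no value, Pigr among them. Fcamr, a receptor for IgA and IgM known on follicular dendritic cells in mouse, was at 2.69 to 4.08 in the lower and 5.65 to 7.16 in the upper range. The chemokine receptor Cxcr4 was at 5.21 to 6.16 and 7.15 to 8.81, and Madcam1, the vessel molecule that lets gut-homing lymphocytes in, at 4.69 to 6.18 and 6.60 to 8.42. The niche genes Il6 and Ccl25 had the smallest SDs, and Ccl25, the epithelial chemokine that draws plasma cells to the small intestine, was at 10.05 to 10.45 in the lower and 9.69 to 10.15 in the upper range.

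Of the partners of Cd180 among the Toll-like receptors, 12 of 14 genes were tested and 4 separated the ranges, against 2.78% of all genes. Ly86, whose product pairs with Cd180 at the cell surface, was at 4.503 to 6.01 in the lower and 6.38 to 8.17 in the upper range. Tlr7, an RNA sensor of B cells and plasmacytoid dendritic cells, was at 2.49 to 4.38 and 4.98 to 6.22, and the signalling protein Vav1 at 3.59 to 5.48 and 5.77 to 6.85. The remaining gene of the 4, outside the rule for named genes, was Unc93b1. Tlr4 (4.67 to 5.57 and 5.11 to 5.54) and its co-receptor Cd14 (5.99 to 7.01 and 6.15 to 7.02) overlapped and had the smallest SDs of the list, 0.23 and 0.26.

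Of the partners and targets of Pou2af1, 6 of 14 genes were tested, and the octamer factors Pou2f1 and Pou2f2 gave no value. The 3 that separated the ranges, against 2.78% of all genes, were Cxcr5, Blk and Spi1. Of these Cxcr5 and Blk belong to the follicle list too. Cxcr5, the receptor that guides B cells into follicles, was at 2.73 to 4.05 in the lower and 6.64 to 8.19 in the upper range. The kinase Blk was at 2.15 to 3.87 and 4.08 to 5.497, and Spi1 at 5.31 to 6.28 and 6.92 to 7.64. The related tuft cell genes Pou2f3 (3.83 to 5.92 and 4.46 to 5.90) and Pou2af2 (3.79 to 5.42 and 4.16 to 5.44) overlapped. Of the follicle stroma and its chemokines, 12 of 16 genes were tested, and Fdcsp and Gp2 were below the filter. Of the 12, 8 separated the ranges, against 2.78% of all genes. Ccl19 (2.59 to 4.41 and 8.86 to 10.52), Cxcl13 (3.22 to 7.40 and 10.19 to 11.20) and Ccl21 (6.19 to 7.75 and 10.04 to 11.05) are chemokines that organise lymphoid tissue. Ltbr and Cr1l overlapped, with SDs of 0.23 and 0.15.

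By operation none of these lists held a gene past the threshold in any of the 5 contrasts by limma. In RYGB against Sham_RYGB 16 of 16 follicle B cell genes had lower means (median log2 difference -1.29, 0 with an unadjusted p below 0.05), where 51.9% of all genes did and the median of all genes was -0.01. Of the plasma cell genes 14 of 17 were lower, with a median of -0.14 and 1 (Sec11c) with an unadjusted p below 0.05. Among the lower-range arrays alone, a count added after the data were seen, 8 of 16 follicle genes were lower (median -0.03) and 11 of 17 plasma cell genes (median -0.05), where 54.2% of all genes were. In VSG against Sham_VSG 16 of 16 follicle genes (median -0.78) and 13 of 17 plasma cell genes (median -0.13) were lower, against 56.5% of all genes, with 0 and 2 at an unadjusted p below 0.05. The lower-range arrays alone gave 15 of 16 (median -0.23) and 12 of 17 (median -0.12), against 55.7% of all genes. The genes of a list move together in an array, so a count of them is not a count of independent results.

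In the other lists the RYGB medians were -0.67 for germinal centre, -0.29 for IgA transport and niche, -0.21 for Cd180 and Toll-like receptor partners, -0.61 for Pou2af1 partners and -0.94 for follicle stroma genes. The VSG medians were -0.26, -0.42, -0.35, -0.39 and -0.49 in the same order. These lists held 10, 13, 12, 6 and 12 tested genes. In the RYGB comparison 1, 1, 2, 2 and 0 had an unadjusted p below 0.05 by limma, where 13% of all genes had. In the VSG comparison 0, 1, 3, 0 and 0 did, where 6.05% of all genes did. The 2 among the Pou2af1 partners after RYGB were the related tuft cell genes Pou2f3 and Pou2af2. Their log2 differences were -0.885 and -0.60 (limma adjusted p = 0.138 and 0.245).

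Markers of other cell types were read in the same arrays. Of 8 T cell markers 1, Cd2, separated the follicle ranges, and of 7 macrophage markers 3 did, against 2.78% of all genes. The T cell list mean was 4.81 to 6.45 in the lower and 6.37 to 7.30 in the upper range, and the macrophage mean 6.81 to 7.39 and 7.47 to 7.77. None of 10 fat cell, 6 smooth muscle and 9 enterocyte markers separated them, and the enterocyte mean was 10.09 to 10.32 in the lower and 9.76 to 10.22 in the upper range. Macrophage markers had a median r of 0.52 with Mzb1 and 0.58 with Cd180 in the lower range, and of 0.14 and -0.26 in the upper range. The part of T cells and macrophages in the signals of Mzb1 and Cd180 was not tested.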

How the data were processed

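Ileal total RNA was amplified, labelled with biotin and hybridised to 1-colour Affymetrix arrays, per the labels. Deposited log2 signals came from RMA, run by the authors (Affymetrix Expression Console, version 1.3.0.187), per the submitters' processing notes. Which arrays were normalized together is not given in the sources used here. The table held 36685 transcript clusters, 14824 with 1 symbol in GEO's platform annotation, 829 with several and 21032 with none. For each symbol the cluster with the highest mean was kept, and genes below the 25th percentile of these means (a log2 value of 2.33) were left out. Of 14557 symbols, 14415 matched RefSeq (GRCr8) by gene ID.

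Using limma 3.58.1 (R 4.3.3), the 30 arrays were fitted together with 1 mean for each group (25 residual degrees of freedom), with two-sided p-values adjusted by Benjamini and Hochberg over 10918 genes within each contrast. The fit was checked on simulated data. The number of arrays limits the precision, and the median 95% interval reached 0.31 to either side. No pair of arrays was identical. Replicates are separate rats per the labels, whose replicate numbers did not pair arrays (correlations of deviations for same-numbered arrays from -0.659 to 0.702).

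The arrays were divided at the largest gap in the mean of the follicle B cell list. Named were the 4 genes, the 5 most like each, and from each list any gene past the threshold, the 3 with the largest and the 2 with the smallest SD. The lists were for plasma cells, immunoglobulins, follicle B cells, germinal centres, IgA transport and niche, Cd180 partners, Pou2af1 partners, follicle stroma, and markers of T cells, macrophages, fat cells, smooth muscle, enterocytes and red blood cells. The 4 genes and the lists were chosen with earlier results of these data known. None of the 20 immunoglobulin symbols and none of the 6 red blood cell symbols gave a tested gene. Alternatives were other normalizations, filters, weights, moderation, covariates and subsets of arrays. Figures were drawn with matplotlib 3.10.9.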

Additional observations from a re-analysis of the deposited data

Results flagged for a closer look

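In each of the 20 groups formed by a gene and a set of 6 rats, the highest and lowest array were compared with the rest, and 3 stood apart by Dixon's ratio at its 95% critical value. Chance gives about 1 in 20 such groups. Cd180 was at 6.66 in RYGB replicate 4, where the next array was at 2.68 and the lowest at 2.19 (ratio 0.891). Pou2af1 was at 6.86 in the same array, where the next was at 4.49 and the lowest at 3.26 (ratio 0.658). This array is the only RYGB array in the upper follicle range, and without it the RYGB differences were -2.61 for Cd180 and -1.83 for Pou2af1. Jchain was at 9.94 in Sham_RYGB replicate 5, where the other arrays lay between 10.40 and 10.60 (ratio 0.708). That array is in the lower follicle range.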

How the results depend on the processing

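Each gene and contrast was refitted under the alternative settings, 523 combinations of gene, contrast and setting. None passed by limma (lowest adjusted p = 0.298), and 492 kept the direction. Cd180, with a mean of 4.36, fell below the stricter filter of 4.52 and was not tested under it. Part of these settings could not change it. The filters, the moderation, the replicate block, the fit of only the groups compared and the mean of a gene's clusters leave these differences as they are. The limma F-test of any difference among the groups also passed in none of 163 combinations of gene and setting (lowest adjusted p = 0.216). Reversals were as follows. With the follicle list as a covariate the RYGB difference of Jchain was 0.0772, the VSG against Sham_VSG_PF difference of Pou2af1 0.12 and the Sham_VSG_PF against Sham_VSG difference of Mzb1 0.0641. With only lower-range arrays these were 0.00113 for Jchain after RYGB and 0.13 for Pou2af1 in VSG against Sham_VSG_PF, while the contrast of both effects (RYGB less VSG) was 0.30 for Pou2af1 and 0.47 for Cd180. Without the arrays high in fat cell markers that last contrast was 0.27 for Pou2af1 and 0.50 for Cd180. Array weights gave 0.0844 for it in Cd180, and 0.0312 for Pou2af1 in VSG against Sham_VSG_PF. The cause was not tested.

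Leaving out 1 array in turn gave -0.13 to 0.0597 for Jchain after RYGB, -0.60 to 0.46 for Pou2af1 and -1.02 to 0.40 for Cd180 in VSG against Sham_VSG_PF. For RYGB less VSG it gave -0.19 to 0.57 for Mzb1, -1.02 to 0.0211 for Pou2af1 and -1.36 to 0.0558 for Cd180. Without VSG replicate 4 the VSG differences were -1.36 for Pou2af1, -1.36 for Mzb1 and -1.96 for Cd180, and without Sham_VSG replicate 4 they were -0.44, -0.74 and -0.75.

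With the replicate number as a block the differences stayed as they were, which the balanced numbers fix, and no call changed (limma adjusted p = 0.486 for Cd180 after RYGB, 0.838 for Jchain after VSG). The numbers did not pair the arrays: 7 of 30 arrays were closest to their own number.

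Without the 2 farthest arrays r was 0.603, 0.526 and 0.382 in the lower range for Jchain with Mzb1, Jchain with Cd180 and Mzb1 with Cd180. In the upper range it was 0.657, 0.642, 0.582 and 0.833 for Jchain with Mzb1, Mzb1 with Pou2af1, Mzb1 with Cd180 and Pou2af1 with Cd180. With deviations from group means the same relations had 0.457, 0.435 and 0.274, and 0.693, 0.895, 0.800 and 0.936. None of these 14 passed.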

Other observations

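None of the immunoglobulin symbols listed gave a value, so clusters with immunoglobulin-like names were searched for afterwards. Of the 6 found, Ighl8 was below the filter on dim genes and none separated the follicle ranges. Igkvl15 was at 8.27, 8.94 and 9.82 (lowest, median and highest) in the 19 lower-range arrays and at 8.92, 9.94 and 10.31 in the 11 upper-range arrays. Igkv2-112l2 was at 4.67, 5.82 and 8.20 in the lower and 6.47, 7.14 and 8.57 in the upper range. Igkvl7 was at 1.57, 2.21 and 3.36 and at 1.75, 3.32 and 4.35. Igh-6l1 and Igll1 had SDs of 0.24 and 0.28 over the 30 arrays. These genes have near-identical relatives, so their signals may be shared among them.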
